A study of Homo sapiens with 6 samples.

Results

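The receptors for hematopoietic growth factors were followed as a set of 9 genes, CSF1R, CSF2RA, CSF2RB, CSF3R, IL3RA, IL5RA, KIT, FLT3 and IL6R, out of the 60612 gene IDs in each count table. They were chosen by name, with each Ensembl ID matched to its symbol. RNA was sequenced from KO52 cells, an established human acute myeloid leukemia line labelled CEBPA double mutant in every group, the EV controls included. The cells carried a lentiviral vector that doxycycline switches on, holding a dominant negative C/EBP peptide (dnCEBP), a dominant negative FOS peptide (dnFOS) or no insert (empty vector, EV), and after induction the cells positive for the vector's GFP were sorted. Each of the 3 groups held 2 libraries, all from 1 cell line. The comparisons with EV ask which receptor genes change when DNA binding by the C/EBP or the AP-1 family is blocked. Total counts ran from 9862994 to 27663179 per library, both dnFOS libraries being the shallowest. Of the 9 genes, 7 passed a filter on low counts and were tested among 15395 genes, while IL5RA and FLT3 did not.

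Growth factor receptors let blood cells read the cytokines that keep them alive and steer their maturation. CSF3R binds G-CSF and serves the neutrophil lineage, and CSF1R binds M-CSF and serves monocytes and macrophages. IL3RA, CSF2RA and IL5RA are the private alpha chains for IL-3, GM-CSF and IL-5, and each pairs with CSF2RB, the shared beta chain that carries the signal to JAK2 and STAT5. IL6R is the ligand-binding chain for IL-6 and signals through gp130. KIT and FLT3 are receptor tyrosine kinases of stem and progenitor cells and bind stem cell factor and FLT3 ligand. C/EBP and AP-1 proteins bind DNA as dimers, and a dimer that includes one of the peptides is unable to hold on to its site.

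The promoters of the receptor genes that differed from EV, CSF3R and IL3RA, are shown because they are the stretches on which the blocked factors could be looked for by sequence. They were taken from RefSeq (GRCh38.p14) and run 5′ to 3′ on the strand of the gene, from 250 bases before to 50 bases after an annotated start site. Capitals mark matches on either strand to the C/EBP letters TTNNGNAA, the AP-1 letters TGANTCA or the composite letters TGANGCAA.
CSF3R, upstream start, chr1:36483265-36483564, minus strand: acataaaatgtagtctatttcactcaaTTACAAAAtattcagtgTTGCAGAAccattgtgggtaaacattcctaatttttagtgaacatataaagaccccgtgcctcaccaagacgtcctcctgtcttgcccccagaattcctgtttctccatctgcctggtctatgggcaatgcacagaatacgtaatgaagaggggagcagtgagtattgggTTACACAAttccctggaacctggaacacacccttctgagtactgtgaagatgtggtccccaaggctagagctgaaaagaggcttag
CSF3R, downstream start, chr1:36482864-36483163, minus strand: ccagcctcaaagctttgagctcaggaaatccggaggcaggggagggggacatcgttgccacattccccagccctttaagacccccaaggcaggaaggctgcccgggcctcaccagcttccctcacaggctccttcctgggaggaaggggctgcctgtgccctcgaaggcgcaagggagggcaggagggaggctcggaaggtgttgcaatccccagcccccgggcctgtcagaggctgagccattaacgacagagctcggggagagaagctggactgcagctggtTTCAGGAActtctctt
IL3RA, chrX:1336535-1336834, plus strand: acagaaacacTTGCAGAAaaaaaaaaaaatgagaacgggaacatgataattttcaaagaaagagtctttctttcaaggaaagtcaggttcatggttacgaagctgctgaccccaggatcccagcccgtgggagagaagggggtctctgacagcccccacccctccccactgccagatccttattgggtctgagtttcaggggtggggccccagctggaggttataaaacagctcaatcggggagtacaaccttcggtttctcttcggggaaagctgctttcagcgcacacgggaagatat
Every capitalized stretch in these 3 windows was a C/EBP match. The upstream CSF3R window held 3, starting at −223, −206 and −36 from the start site, the downstream window held 1 at +35, and the IL3RA window held 1 at −240. No AP-1 or composite letters were found in them. The C/EBP letters occur in 36.8% of the 34961 RefSeq promoter windows of this length, the AP-1 letters in 7.68% and the composite letters in 3.22%. Windows were found for 8 of the 9 receptor genes, 10 windows in all, and CSF2RB had none. C/EBP letters lay in 6 of the 10 windows, from 5 genes (CSF3R, IL3RA, CSF1R, CSF2RA and IL6R). AP-1 letters lay in those of 2 genes, at −34 in the upstream window of CSF1R (chr5:150113316-150113615) and at +38 in that of IL6R (chr1:154405093-154405392). These are matches of letters and not measured binding.

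Per kilobase of exon, the empty vector cells held most transcript of the shared beta chain and the IL-3 and G-CSF receptors. In CPM (counts scaled to the size of each library) per kilobase of the union of exons, EV means were 13.5 ± 0.849 for CSF2RB, 13.3 ± 0.419 for IL3RA and 10.4 ± 0.735 for CSF3R (SD, n = 2). CSF2RA followed at 4.98 ± 0.938, KIT at 2.75 ± 0.103, IL6R at 1.98 ± 0.190 and CSF1R at 0.398 ± 0.0786. IL5RA at 0.0497 and FLT3 at 0.0271 were lowest. CSF2RB and IL3RA did not differ beyond their spread, and the order of the leading 3 genes depended on the length used. Divided by the length of a single long transcript instead, a setting chosen after seeing the data, CSF3R came to 14.4 against 13.9 for CSF2RB and 13.3 for IL3RA. In dnFOS cells the union-of-exons means were 12.5 for CSF3R, 11.6 for CSF2RB and 6.90 for IL3RA, and in dnCEBP cells 11.5 for CSF2RB, 10.9 for IL3RA and 7.37 for CSF3R.

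With dnCEBP, CSF3R fell and none of the other 6 tested receptor genes was called by edgeR's quasi-likelihood test at an adjusted p under 0.05. Over all genes, 1.07% were called in that comparison, 0.448% as lower and 0.624% as higher. With dnFOS, IL3RA fell and no other receptor gene was called against EV, where 15% of all genes were called, 7.76% as lower and 7.24% as higher, so that 1 of 7 is close to the share over all genes. Between the peptides, CSF3R and IL6R were higher and IL3RA lower in dnFOS, 3 of 7, where 14.7% of all genes were called, 7.84% as lower and 6.83% as higher. Before adjustment, p was under 0.05 for 6 of the 7 receptor genes with dnCEBP, against 11.9% of all genes, and for 3 with dnFOS, against 27.9%. The median log2 fold change of the 7 was −0.45 with dnCEBP and −0.08 with dnFOS, beside −0.0022 and 0.0040 over all genes. Scaled by library totals alone, 1905 of all genes were called higher and 676 lower with dnFOS, against 1115 and 1194 here, and 767 and 1355 with a GC and length trend removed. Between the peptides library totals gave 2101 higher and 714 lower, against 1052 and 1207. The comparisons with EV share its libraries.

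**Figure D1:**
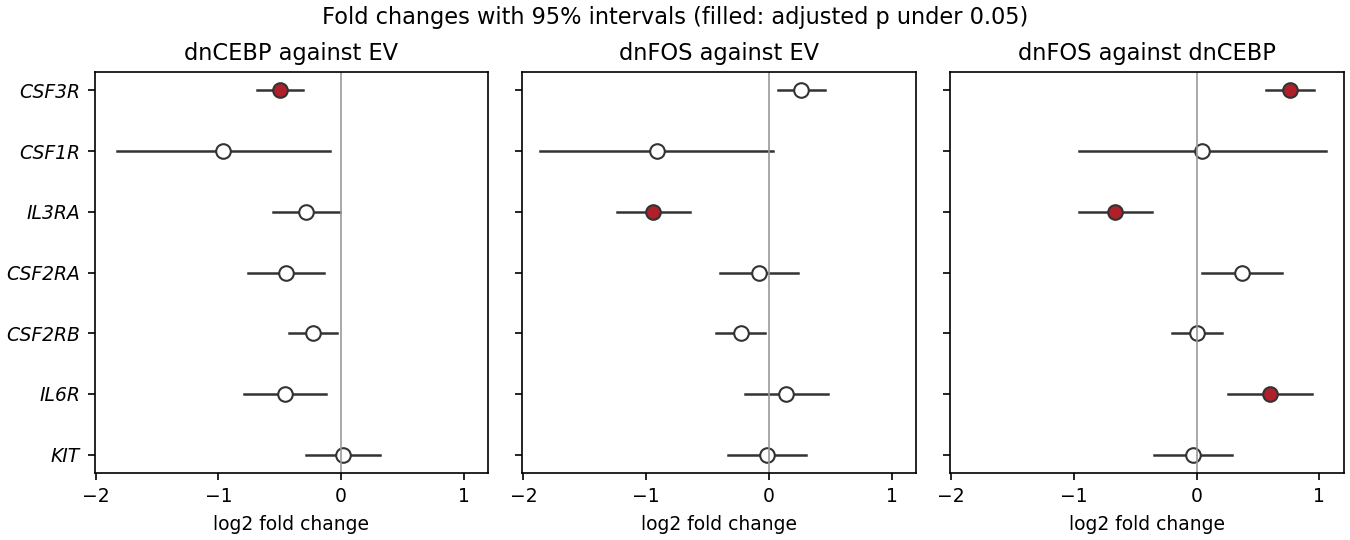
Fitted log2 fold changes (x axis) of the 7 tested receptor genes in the 3 comparisons, with bars for 95% confidence intervals and filled points for genes called by edgeR at an adjusted p under 0.05. CSF3R was the called gene with dnCEBP and IL3RA the called gene with dnFOS, and the interval of KIT spanned 0 in every panel.

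CSF3R (ENSG00000119535, GRCh38 chromosome 1, 36466043 to 36483278, minus strand), the G-CSF receptor, had 92.1 and 83.4 CPM in the EV libraries, against 65.6 and 58.6 in the dnCEBP libraries and 112.7 and 97.7 in the dnFOS libraries. The 3 groups did not overlap, with dnCEBP lowest and dnFOS highest. With dnCEBP the transcript fell by 29.2%, a log2 difference of −0.50 (SE 0.093, 95% interval −0.69 to −0.31, edgeR adjusted p = 0.00421). Leaving out dnCEBP replicate 2 or EV replicate 1 ended this call, at −0.42 in both fits (adjusted p = 0.183 and 0.0891). In dnFOS the difference from EV was 0.26 ± 0.094 (SE), which narrowly missed the threshold (edgeR adjusted p = 0.0538) and passed it under 4 of 9 other settings. It also passed without dnFOS replicate 2 (0.36, adjusted p = 0.0299) or without either dnCEBP library (0.0475 and 0.0485). Set directly against dnCEBP, dnFOS cells held 1.70-fold more CSF3R transcript (log2 0.76 ± 0.095, edgeR adjusted p = 1.05e-06). In bulk RNA, fewer cells of a type and less RNA per cell cannot be told apart. Markers of myeloid blasts, of which 8 of 11 averaged at least 1 CPM, summed to 707 to 777 CPM in EV, 524 to 557 with dnCEBP and 562 to 585 with dnFOS, with ELANE at 0 in 3 libraries. Much of the difference between dnCEBP and EV was MPO, the granule enzyme myeloperoxidase. MPO stood at 239 and 194 CPM in EV, 63.5 and 53.0 with dnCEBP and 153 and 140 with dnFOS. Without MPO, a sum added after seeing the data, the list came to 513 to 538, 471 to 493 and 422 to 432 CPM. The progenitor marker CD34 was not lower with dnCEBP, at 154 and 145 CPM against 134 and 135 in EV, but was lower with dnFOS, at 116 and 114. ITGAM was higher with both peptides, at 21.2 and 21.5 CPM with dnCEBP and 30.0 and 29.6 with dnFOS against 18.6 and 13.0 in EV. Both peptide groups lay below EV for SPI1, LYZ and ANPEP. The part of these markers in the CSF3R result was not tested.

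CSF1R (ENSG00000182578, chromosome 5, 150053291 to 150113372, minus strand), the M-CSF receptor, was barely expressed. It gave 42 and 51 reads in the EV libraries, 35 and 16 with dnCEBP and 11 and 16 with dnFOS, or 1.76 and 2.33, 1.30 and 0.772, and 0.716 and 1.55 CPM. Both peptide groups lay below both EV libraries. The fitted differences of −0.96 with dnCEBP (95% interval −1.83 to −0.09) and −0.91 with dnFOS (−1.86 to 0.04) did not pass (edgeR adjusted p = 0.359 and 0.199). At this depth the intervals run from hardly any change to a large one. Of 6 monocyte markers none was tested, CD14 had at most 6 counts, CD163 was at 0 in every library, and the list summed to at most 0.733 CPM.

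IL3RA (ENSG00000185291, chromosome X, 1336616 to 1382689, plus strand), the IL-3 receptor alpha chain and a surface marker of leukemic blasts, showed the largest of the called receptor differences over the 3 comparisons. Its levels were 22.2 and 23.2 CPM in EV, 18.9 and 18.3 with dnCEBP and 11.5 and 12.1 in dnFOS. No groups overlapped, and the SD within a group was 0.396 to 0.717 CPM. With dnFOS it fell by 0.94 on the log2 scale (SE 0.15, 95% interval −1.24 to −0.65, edgeR adjusted p = 4.8e-05), to 0.520 of the EV level. It was also lower in dnFOS than in dnCEBP (−0.66 ± 0.15, edgeR adjusted p = 0.00214). The difference of −0.28 ± 0.13 with dnCEBP was not called (adjusted p = 0.394). IL3RA and CSF2RA lie in the pseudoautosomal region, where X and Y carry the same sequence, and how reads that match both copies were counted is not given in the sources used here.

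Summed markers of some other lineages were also lowest in the dnFOS libraries. A list for eosinophils, basophils and mast cells, with 5 of 9 genes averaging at least 1 CPM, summed to 529 and 542 CPM in EV, 615 and 636 with dnCEBP and 297 and 271 with dnFOS. Most of it was HDC, the histidine decarboxylase that makes histamine, while the eosinophil genes EPX and PRG3 had at most 10 counts and PRG3 was at 0 in 3 libraries. Among the 5, MS4A2 alone was higher with dnFOS, at 8.27 and 11.1 CPM against 6.59 in each EV library. The megakaryocyte list, 2 of 5 genes at that level and nearly all ITGA2B, summed to 183 to 195, 201 to 238 and 102 to 113 CPM in EV, dnCEBP and dnFOS. Its PPBP was not lower with dnFOS, at 2.80 and 1.74 CPM against 1.68 and 1.10 in EV. The T or NK cell list, 3 of 6 genes and mostly CD3D, gave 120 to 126, 150 to 152 and 96.8 to 109. Its NCAM1 overlapped between dnFOS (2.73 and 4.45 CPM) and EV (1.72 and 3.30). Erythroid and B cell lists reached at most 4.03 and 19.5 CPM, with the B cell genes MS4A1 and PAX5 at 0 throughout. The part of these markers in the fall of IL3RA was not tested.

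CSF2RA (ENSG00000198223, chromosome X, 1268800 to 1310381, plus strand), the GM-CSF receptor alpha chain, stood at 21.6 and 16.5 CPM in EV, 12.6 and 15.5 with dnCEBP and 18.7 and 17.3 with dnFOS. Both dnCEBP libraries were below both EV libraries, but EV itself spread widely and the difference of −0.45 (95% interval −0.76 to −0.14) was not called (edgeR adjusted p = 0.184). With dnFOS it was −0.08 (−0.40 to 0.24, adjusted p = 0.783), and the groups overlapped. IL5RA (ENSG00000091181, chromosome 3, 3066326 to 3126613, minus strand), the IL-5 chain of eosinophils, was near its detection limit, with 8 and 7 reads in EV, 3 and 5 with dnCEBP and 3 and 2 with dnFOS. A floor of 3 reads was worth 0.111 to 0.290 CPM by library, on scaled library sizes, and IL5RA was not tested.

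CSF2RB (ENSG00000100368, chromosome 22, 36913628 to 36940449, plus strand), the common beta chain, passes on the signal for all 3 alpha chains. EV libraries held 70.7 and 64.6 CPM, dnCEBP libraries 59.4 and 55.9 and dnFOS libraries 53.9 and 62.0. Both peptide groups were below EV without overlap, each by a log2 difference of −0.23 (SE 0.095 and 0.098), and neither was called (edgeR adjusted p = 0.316 and 0.12). Against each other the peptide groups differed by 0.00 (95% interval −0.20 to 0.20). With dnCEBP, both libraries lay below both EV libraries for 6 of the 7 tested receptor genes, all but KIT, a pattern held by 20.9% of all genes. For dnFOS the same was seen in 3 of 7, CSF1R, IL3RA and CSF2RB, beside 28.4% of all genes.

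**Figure D2:**
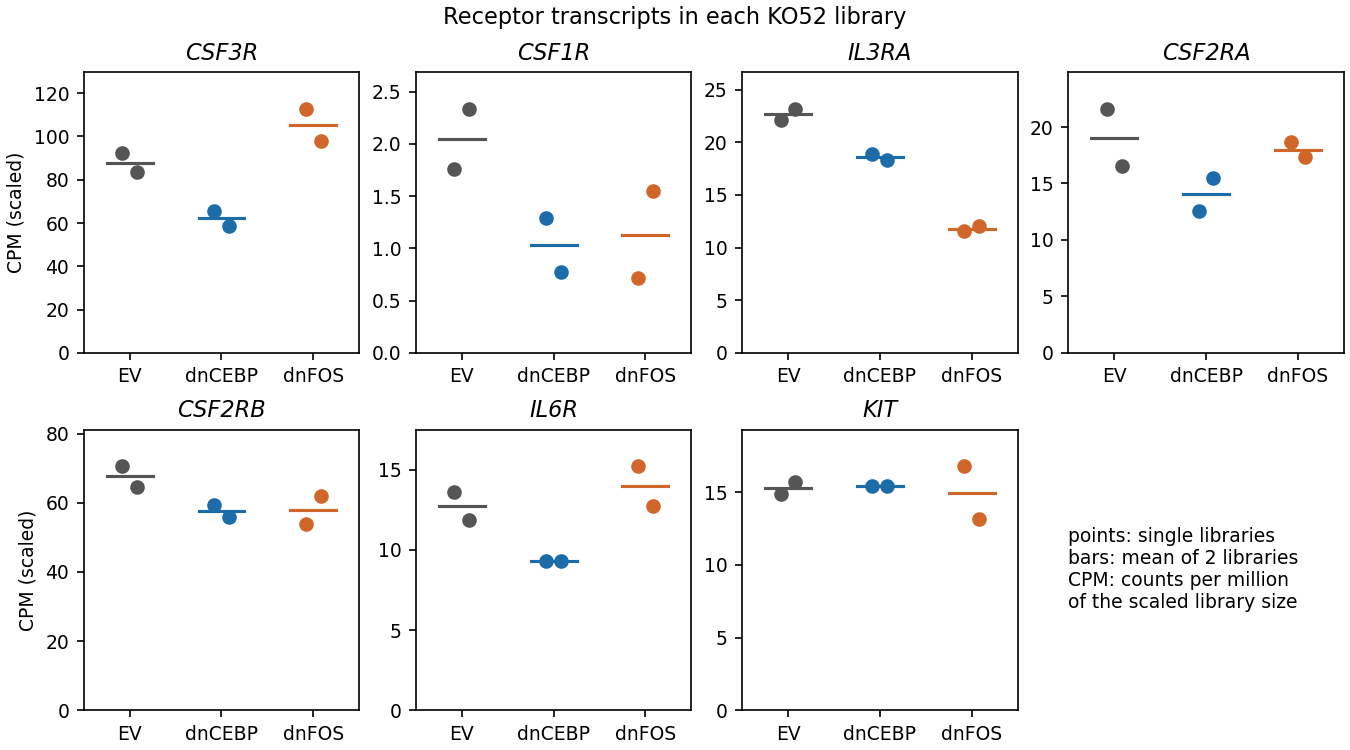
Scaled CPM (y axis, from 0) of the 7 tested receptor genes in each library, with bars for the mean of the 2 libraries of a group. The dnCEBP points of CSF3R sit at 65.6 and 58.6, below every other library, and the dnFOS points of IL3RA at 11.5 and 12.1, below every other library.

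The alpha chains were also set against their shared partner. Per kilobase, the ratio of IL3RA to CSF2RB was 0.917 and 1.05 in EV, 0.932 and 0.960 with dnCEBP and 0.625 and 0.570 with dnFOS, means of 0.982 ± 0.0927, 0.946 ± 0.0198 and 0.598 ± 0.0388 (SD, n = 2). For the ratio of CSF2RA to CSF2RB the EV libraries overlapped both peptide groups, at 0.367 ± 0.0463, 0.319 ± 0.0602 and 0.409 ± 0.0622. On the union of exons, IL3RA transcript outweighed CSF2RA by 2.72 ± 0.596 in EV, 3.01 ± 0.505 with dnCEBP and 1.47 ± 0.129 with dnFOS. By the length of a single long transcript, IL3RA and CSF2RA came to 13.3 and 8.32 CPM per kilobase in EV and 10.9 and 6.13 with dnCEBP. In dnFOS cells the values were 6.92 and 7.86, so which chain led there depended on the length used. On the union of exons, CSF3R relative to CSF2RB came to 0.769 ± 0.00603, 0.639 ± 0.0245 and 1.09 ± 0.215. By the single transcript length CSF3R led CSF2RB in EV, at 14.4 against 13.9. These ratios share transcripts with the tests above and were not tested. A ratio within a library shows unequal change and not which chain moved.

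**Figure D3:**
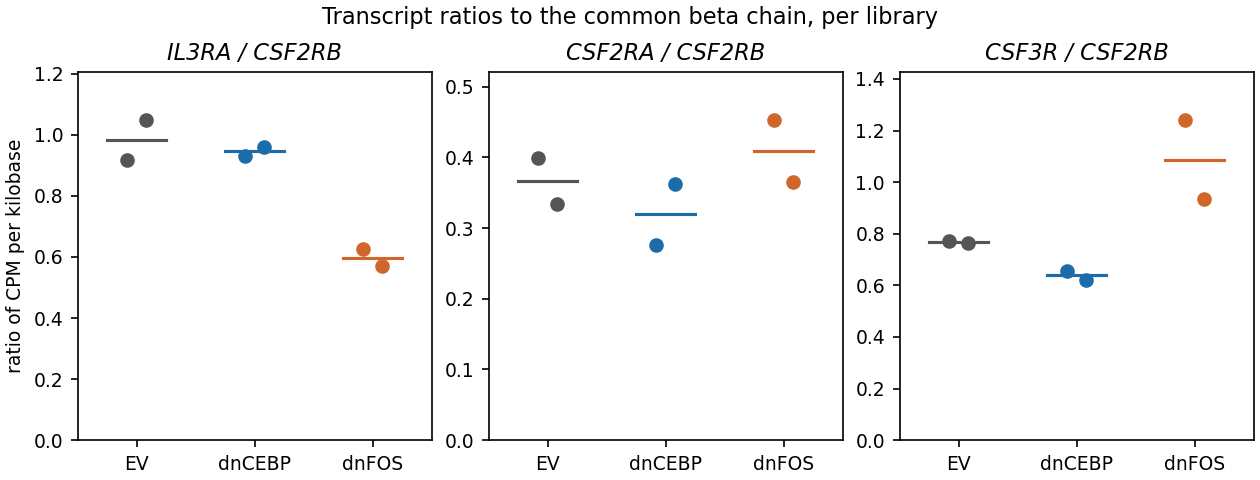
Ratios of receptor transcripts per kilobase of exon (y axes, from 0) in each library, with bars for group means. The dnFOS libraries stand below the others for IL3RA over CSF2RB, at 0.625 and 0.570, while for CSF2RA over CSF2RB the EV libraries overlap both peptide groups.

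IL6R (ENSG00000160712, chromosome 1, 154405193 to 154469450, plus strand), the IL-6 binding chain, was at 13.6 and 11.9 CPM in EV, 9.29 and 9.32 with dnCEBP and 15.2 and 12.8 with dnFOS. The dnCEBP libraries were the lowest, and EV and dnFOS overlapped. IL6R was 1.51-fold higher in dnFOS than in dnCEBP (log2 0.60 ± 0.17, edgeR adjusted p = 0.0151). That call was lost without dnCEBP replicate 1 or 2 or without dnFOS replicate 1 (adjusted p = 0.0673, 0.0536 and 0.181). Neither difference from EV was called, at −0.46 with dnCEBP (95% interval −0.79 to −0.13, adjusted p = 0.213) and 0.14 with dnFOS (−0.20 to 0.48, adjusted p = 0.632).

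KIT (ENSG00000157404, chromosome 4, 54657918 to 54740715, plus strand), the stem cell factor receptor, had 14.9 and 15.7 CPM in EV, 15.4 in each dnCEBP library and 16.8 and 13.1 in dnFOS. All groups overlapped. Its fitted difference was 0.01 with dnCEBP (95% interval −0.29 to 0.32) and −0.02 with dnFOS (−0.33 to 0.30), so larger changes in either direction lie outside the intervals (edgeR adjusted p = 0.985 and 0.958). FLT3 (ENSG00000122025, chromosome 13, 28003274 to 28100592, minus strand), the other progenitor kinase, gave 1 and 4 reads in EV, 0 and 3 with dnCEBP and 4 and 1 with dnFOS. The dnCEBP library with 0 reads allows up to 0.111 CPM.

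Hardly any transcript of the ligands of these receptors was found. Transcripts of 8 of 11 ligand genes, CSF2, CSF3, IL3, IL5, IL6, KITLG, THPO and EPO, had 0 reads in every library, which allows up to 0.111 to 0.290 CPM by library, and IL34 and FLT3LG had at most 3 and 8. Only CSF1, which encodes M-CSF, was tested, with 33 and 23 reads in EV, 51 and 35 with dnCEBP and 13 and 20 with dnFOS, and it was called in no comparison. The ligands are named after their values were seen.

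Around the receptors, 103 of 119 genes in 7 pathway lists were tested. The lists were chosen with earlier results of these data known. Their shares of calls, here and below, are therefore a description and no test of enrichment. With dnCEBP 2 were higher and 2 lower, or 3.88%, against the 1.07% over all genes. With dnFOS 8 were higher and 21 lower, or 28.2%, against 15%. Between the peptides 11 were higher and 25 lower in dnFOS, or 35.0%, against 14.7%. The median log2 fold change over the lists was 0.02, −0.11 and −0.11 in these comparisons. The direction of the dnFOS calls depended on scaling, since library totals gave 14 higher and 11 lower against EV and 17 and 16 between the peptides. Without dnFOS replicate 2 or EV replicate 1, calls against EV were 14 and 16 in place of 29, and without dnCEBP replicate 1 those between the peptides were 22 in place of 36. With dnCEBP, leaving out 1 library gave 1 (either EV library), 2 (either dnCEBP library), 7 or 8 (dnFOS replicate 1 or 2). Of 25 calls of the genes named from these lists, 11 held in all 15 other settings.

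**Figure D4:**
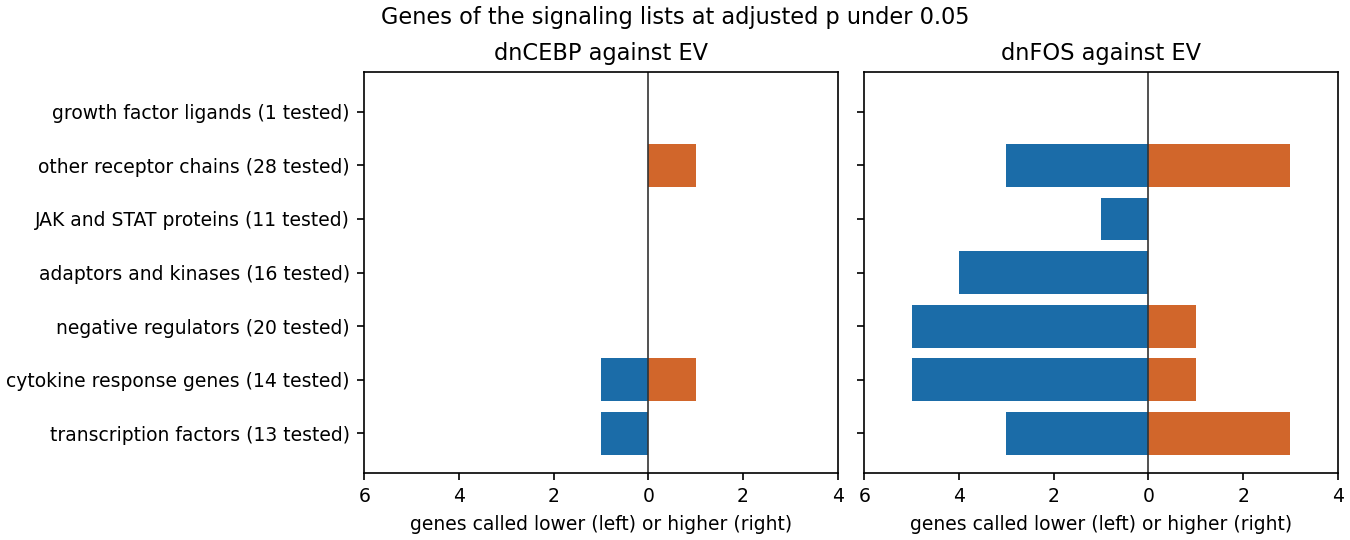
Number of genes (x axis) called higher or lower by edgeR at an adjusted p under 0.05 in each pathway list, for dnCEBP and dnFOS against EV. Lower calls outnumber higher ones over the lists with dnFOS, 21 against 8, though 11 against 14 when scaled by library totals, while dnCEBP gave 2 of each.

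Among 28 tested other receptor chains, 1 was higher with dnCEBP and 3 were higher and 3 lower with dnFOS. That was 3.57% and 21.4% of the list, beside 1.07% and 15% of all genes. IL1RL1, the IL-33 receptor of mast cells and basophils, moved in opposite directions. It held 60.8 ± 5.10 CPM in EV, 80.6 ± 1.38 with dnCEBP and 32.5 ± 0.499 with dnFOS (SD, n = 2), log2 differences from EV of 0.41 and −0.90 (edgeR adjusted p = 0.0224 and 2.96e-07). The rise was lost without any 1 of the dnCEBP or EV libraries (adjusted p = 0.0617, 0.307, 0.056 and 0.346), and the fall held in every setting. With dnFOS, IL2RG, the common gamma chain, fell by 0.33 (edgeR adjusted p = 0.0155). TGFBR1, a TGF-beta receptor kinase, and IGF1R, the receptor for IGF-1, rose by 0.47 and 0.43 (edgeR adjusted p = 0.00175 and 0.0175). Without any 1 of the dnFOS or EV libraries IL2RG was not called (adjusted p = 0.0533 to 0.129), nor were TGFBR1 and IGF1R without dnFOS replicate 2 (0.0672 and 0.340) or IGF1R without EV replicate 2 (0.134). Calls in this list were 1, 3 and 2 without dnFOS replicate 2, EV replicate 1 and EV replicate 2, in place of 6.

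With dnFOS 9.09% of the JAK and STAT genes and 25.0% of the adaptors and kinases were called, beside 15% of all genes, each as lower. Of 11 JAK and STAT genes, STAT2 alone was called (−0.39, edgeR adjusted p = 0.0229), and this list's count ran from 0 to 4 over the settings tried, STAT2 being lost with library totals and without dnFOS replicate 2 (0.186) or EV replicate 2 (0.197). Of 16 adaptors and kinases 4 fell, the docking protein GAB2 by 0.91, the exchange factor VAV1 by 0.42, and the tyrosine kinases FES and LYN by 0.40 and 0.27 (edgeR adjusted p = 8.98e-06, 0.00131, 0.0203 and 0.032). GAB2 and VAV1 held in every setting. FES, LYN and, from other lists, IL2RG and INPP5D were lost with library totals, FES also with the GC and length trend removed. The BCL2L1 call with dnCEBP, given below, was likewise lost with library totals. FES and LYN were lost without dnFOS replicate 2 (0.266 and 0.160) and without EV replicate 1 (0.174 and 0.267), and LYN without EV replicate 2 (0.0647). With dnCEBP no gene of either list was called by edgeR at the main settings, DESeq2 or limma-voom. The replicate block gave 1 call among the JAK and STAT genes. At the main settings 2 of the 11 and 4 of the 16 had an unadjusted p under 0.05. The medians with dnFOS were −0.15 for the JAK and STAT genes and −0.02 for the adaptors and kinases.

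Of 20 tested negative regulators of receptor signaling, none was called by edgeR with dnCEBP at the settings used here, where 6 had an unadjusted p under 0.05. In dnFOS cells 5 fell and 1 rose, or 30.0% of the list, beside 15% of all genes. With dnCEBP 1 was called with DESeq2, limma-voom, no filter or only the 2 groups compared, 3 with the GC and length trend removed, and 2 and 3 without dnFOS replicate 1 and 2. SOCS4, a suppressor of cytokine signaling, rose with dnFOS by 0.67 (edgeR adjusted p = 0.000875). The phosphatases PTPN6 (SHP-1), PTPRC (CD45) and INPP5D (SHIP1) fell with dnFOS by 0.36, 0.33 and 0.32 (edgeR adjusted p = 0.00536, 0.00663 and 0.00995). SOCS4 and PTPN6 were lost with the GC and length trend removed. Without EV replicate 1 none of the 3 phosphatases was called (adjusted p = 0.0561, 0.0829 and 0.129), nor was INPP5D without dnFOS replicate 2 (0.104), and the list then gave 1 and 3 calls in place of 6.

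Among 14 cytokine response genes, MYC fell by 0.68 with dnCEBP, from 224 ± 12.4 to 140 ± 13.3 CPM, and BCL2L1, a survival gene, rose by 0.52 (edgeR adjusted p = 4.76e-05 and 0.0306). BCL2L1 was not called without dnCEBP replicate 1, EV replicate 1 or EV replicate 2 (adjusted p = 0.280, 0.0912 and 0.242). The dnCEBP calls were 14.3% of the list, beside 1.07% of all genes. With dnFOS 5 fell and 1 rose, or 42.9%, beside 15% of all genes. OSM, a cytokine gene induced by STAT5, fell by 0.96, and the kinases PIM1 and PIM3 by 0.53 and 0.77 (edgeR adjusted p = 4.55e-06, 5.88e-05 and 0.000457). BCL2, a survival gene, rose by 0.48 (edgeR adjusted p = 0.000274). MYC and these 4 genes held in every setting.

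Of 13 tested transcription factors known to act on these receptor genes, GFI1, a repressor in the neutrophil lineage, fell by 0.50 with dnCEBP (edgeR adjusted p = 0.00926), a call lost without any 1 of the dnCEBP or EV libraries (0.0603 to 0.125). The dnCEBP call was 7.69% of the list, beside 1.07% of all genes. With dnFOS 3 rose and 3 fell, or 46%, beside 15% of all genes. GATA1, the factor of erythroid, megakaryocytic, eosinophil and mast cells, went from 6.89 ± 1.06 CPM in EV to 2.62 ± 0.393 in dnFOS (−1.41, edgeR adjusted p = 0.000214). CEBPE, a late granulocytic C/EBP gene, changed by −1.39, while HOXA9 and RUNX1 rose by 0.52 and 0.51 (edgeR adjusted p = 0.00396, 0.00137 and 0.00287). RUNX1 was not called without dnFOS replicate 2 (0.116), and this list then gave 3 calls in place of 6.

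The tested genes whose log2 CPM ran most like that of a called receptor gene over the 6 libraries were found among 9962 genes. For IL3RA these were DDIT4, a stress-induced inhibitor of mTOR signaling (Pearson r = 0.998), and CLC, also on the eosinophil, basophil and mast cell list, the Charcot-Leyden crystal protein of eosinophils and basophils (0.996). CLC had 11.0 and 10.1 CPM in EV, 4.77 and 4.63 with dnCEBP and 0.651 and 0.967 with dnFOS. That order of groups is shared with IL3RA because CLC was picked by this correlation. Only its EV libraries exceeded the 5 CPM asked of the mean. For CSF3R they were PFAS, a purine synthesis enzyme (0.988), and CLCN5, a chloride transporter (0.987), and for IL6R METTL23 (0.998) and PFAS (0.991). The points share groups, depth and scaling, and the correlations are a description.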

How the data were processed

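Total RNA of 6 KO52 libraries was measured, grouped and numbered by the sample titles. Per the labels, the authors depleted ribosomal RNA, amplified with 15 cycles and read 75 bases from both ends. They deposited raw, whole-number counts for each gene. The submitters' processing notes name Trimmomatic, HISAT2, featureCounts, Subread and hg38. The strand setting, the treatment of reads matching several places and the annotation release are not given in the sources used here. Of 60612 IDs, 58394 matched GENCODE release 29 on GRCh38, which gave symbols, coordinates and exon lengths. Pseudogene copies of CSF2RB and IL6R had 0 counts. The labels do not say whether replicates were separate cultures, so p-values measure only the spread between these samples, which may be technical.

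The main test used edgeR 4.0.16 under R 4.3.3. filterByExpr (minimum count 10) kept 15395 of 27870 genes with a count. TMM factors ran from 0.956 to 1.05. All 6 libraries entered 1 robust quasi-likelihood fit with group means, which left 3 residual degrees of freedom, and the common biological coefficient of variation was 0.0961. Contrasts were tested two-sided, with Benjamini-Hochberg adjustment over all genes tested and calls at 0.05. Library sizes in CPM are scaled ones, and 2 is the prior count of log2 CPM. Standard errors came from the fold change and its F statistic.

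The alternatives were median-of-ratios size factors, library totals, no filter, a mean of at least 1 CPM, DESeq2 1.42.0, limma-voom 3.58.1, only the 2 groups compared, a smooth trend on GC content and length removed (mgcv), the replicate number as a block, and each library left out. The receptor genes, the gene lists and the markers were chosen with earlier results of these data known. All receptor genes are named. From each pathway list, up to 4 called genes per comparison with EV are named, those averaging at least 1 CPM with the smallest adjusted p. The 2 genes most like each called receptor gene averaged at least 5 CPM. Promoters are printed for receptor genes called against EV. Motifs were searched as letters on both strands. The scripts were tested on simulated data.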

Additional observations from a re-analysis of the deposited data

How the results depend on the processing

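Over the 7 tested receptor genes, 279 recomputed fold changes kept their direction and side of the threshold, 8 gained a call, 5 lost one and 22 turned sign. IL3RA with dnFOS stayed called against EV throughout, from −0.98 to −0.83 (adjusted p from 1.03e-07 to 0.000559 without the block). CSF3R with dnFOS was called with library totals (0.36, adjusted p = 0.00988), a mean of at least 1 CPM (0.27, 0.0426), the GC and length trend removed (0.43, 8.13e-05) and the replicate block (0.26, 0.00973), giving 2 receptor genes instead of 1 in each of these, and 1 to 2 with a library left out. Its adjusted p ran from 8.13e-05 to 0.376 over all settings but the block. CSF2RA between the peptides was called with library totals (0.49, adjusted p = 0.0368). Library totals moved the median of all genes to 0.10 for dnFOS against EV and 0.14 against dnCEBP.

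With dnCEBP, receptor calls ran from 0 to 1 without 1 library, pathway calls from 1 to 8 (main 4) and calls over all genes from 33 to 314 (main 165). Pathway calls were 11 with the replicate block, among them 1 JAK or STAT gene and 3 negative regulators, and 9 with the GC and length trend removed. Calls over all genes were 255 with no filter, 297 with 2 groups, 488 with the block and 255 with the trend removed. Without 1 library, dnFOS against EV gave 14 to 30 pathway calls and 972 to 2426 in all, and dnFOS against dnCEBP 22 to 37 and 1182 to 2262. In these fits the lone library of a group is assumed to vary like the other groups.

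Sign changes touched fold changes that were not called. With library totals KIT was −0.0096 with dnCEBP, 0.080 with dnFOS and 0.090 between the peptides, and CSF2RA 0.018 with dnFOS. KIT was −0.032 with dnCEBP with the trend removed. CSF1R between the peptides was −0.045 with voom. CSF2RB between the peptides was −0.0080 with median-of-ratios factors, −0.020 with no filter, −0.0078 with DESeq2, −0.0082 with voom and −0.014 with 2 groups. Without 1 library KIT ran from −0.025 to 0.046, −0.218 to 0.135 and −0.231 to 0.122 in the 3 comparisons, CSF2RA from −0.274 to 0.126 and IL6R from −0.0018 to 0.254 with dnFOS, and CSF1R from −0.547 to 0.557 and CSF2RB from −0.0967 to 0.104 between the peptides. The cause was not tested. Replicate numbers are shared across groups, and deviations of same-numbered libraries correlated at 0.088, 0.017 and 0.028 over the tested genes. Counting noise also keeps such correlations low, so they cannot tell whether the numbers pair the libraries. Depth limits CSF1R, IL5RA and FLT3.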
